A study of Mus musculus with 400 samples.

Results

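The genes examined encode 7 RNA-binding proteins, measured in single cells sorted for high Lgr5 from mouse small intestine: the Musashi genes Msi1 and Msi2, the insulin-like growth factor 2 mRNA-binding protein genes Igf2bp1, Igf2bp2 and Igf2bp3, Elavl1 (HuR) and Lin28b. They were taken as a named list, not by a rule on measured values, though with earlier results of these data known. All 7 were found among the 33496 genes of the count table by their Ensembl identifiers. Values are given over the 380 of 400 cells with at least 10000 counts. By its title, the study concerns Mex3a, another RNA-binding protein gene, as the mark of slowly dividing Lgr5 stem cells. Every cell belongs to 1 group. The mice carried EGFP, an internal ribosome entry site and the tamoxifen-inducible CreERT2 recombinase at the Lgr5 locus. Crypts came from the duodenum and jejunum of age- and sex-matched animals, dead cells were gated out with DAPI, and single cells were captured on a Fluidigm C1 high-throughput chip and amplified with a SMARTer kit. The protocols also name Cyp1a1 H2B-YFP mice and a tamoxifen dose, without tying either to particular cells, and they give no age. No animal is named for any cell, so the cells count as 1 sample and no test between groups of cells was made. The titles divide the cells into 10 numbered sets of 40, called library sets here. The labels do not say whether these sets differ in animal, and each holds different cells, so the spread over sets can hold differences between cells, libraries and animals. The same 40 barcode numbers recur in every set.

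Musashi proteins bind mRNA and repress or stabilise it, and they are known in the intestine as regulators of stem cell growth, with Numb among the first described targets. Igf2bp proteins are oncofetal mRNA-binding proteins that stabilise transcripts and read N6-methyladenosine. Elavl1 binds AU-rich elements and protects short-lived mRNAs, and Lin28b blocks the maturation of let-7 microRNAs, which in turn repress Lin28b, Igf2bp and Hmga2 mRNAs.

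The kept cells had 10766 to 70133 counts (median 32112) and a median of 8614 genes with a count, and 36 to 39 cells were kept per library set. No count in the table was above 36. If counts have a ceiling, ratios of the most abundant genes would be compressed, which was not tested. Lgr5 itself had a count in 97.9% of kept cells, and 9 of 12 crypt base stem cell markers were in at least 90% of them. As background, 23 markers of cell types expected to be absent from the sort (immune, stromal, endothelial, enteric neuron and glia, red blood cells) had a count in 0.263% to 44.5% of the same cells, with a median of 10.3%. The highest of them was the endothelial gene Pecam1, and none of the 23 was at 0. Intervals below are exact Clopper-Pearson intervals at 95% and cover counting error only.

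The link between let-7 and these genes can be read in their 3′ untranslated regions. The mature let-7a sequence and the 22-base stretches of the 4 members that hold its seed match are shown because they divide the list into genes with and without such a match. The microRNA sequence is from RefSeq (GRCm38.p6) and the gene models are GENCODE M21 (GRCm38). Capitals mark the seed (bases 2 to 8) in the microRNA and the match in the genes, all 5′ to 3′ on the strand of the gene.
mmu-let-7a-5p: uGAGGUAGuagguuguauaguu
Igf2bp1 site 1 (chr11:95961778-95961799, minus strand): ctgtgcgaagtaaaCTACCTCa
Igf2bp1 site 2 (chr11:95959357-95959378, minus strand): agcagtgctattaaCTACCTCa
Igf2bp1 site 3 (chr11:95958763-95958784, minus strand): tataaatggatgaaCTACCTCa
Igf2bp1 site 4 (chr11:95958140-95958161, minus strand): cttttggttttaatCTACCTCt
Lin28b site 1 (chr10:45381022-45381043, minus strand): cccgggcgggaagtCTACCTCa
Lin28b site 2 (chr10:45378648-45378669, minus strand): atacttgttagtaaCTACCTCt
Lin28b site 3 (chr10:45378476-45378497, minus strand): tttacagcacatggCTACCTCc
Lin28b site 4 (chr10:45377060-45377081, minus strand): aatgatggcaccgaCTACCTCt
Igf2bp2 site 1 (chr16:22059473-22059494, minus strand): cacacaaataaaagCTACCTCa
Igf2bp3 site 1 (chr6:49086787-49086808, minus strand): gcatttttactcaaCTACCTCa

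All 9 mature let-7 family members in the table, miR-98 included, share the seed GAGGUAG, so 1 motif, CTACCTC on the strand of the transcript, covers the family. For each gene, the transcript with the longest 3′ untranslated region was searched. Igf2bp1 and Lin28b each held 4 matches, Igf2bp2 and Igf2bp3 held 1 each, and Msi1, Msi2 and Elavl1 held 0. Of 21672 genes with a protein-coding model, which can include some with a 3′ untranslated region of 0 bases, 8.75% held at least 1 match and 0.148% held at least 3. Regions of like length (from 0.8 times to its inverse) were then taken, the gene itself included. Of 605 such regions, 0.331% held as many matches as Igf2bp1 (6337 bases). Of 1355, 0.295% held as many as Lin28b (4445 bases). At the lengths of Igf2bp2 and Igf2bp3, 12.1% and 13.3% of regions held at least 1 match, as these genes did. At the lengths of Msi1, Msi2 and Elavl1, 12.8%, 28.3% and 23.8% held at least 1, so most held 0, as these genes did. Other genes of the let-7 circuit also held several: Hmga2 and Trim71 had 4 each and Lin28a had 2. A match is a description of the letters, not proof of a site in use, and let-7 itself was not measured in this polyadenylated RNA.

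Both Musashi genes were found in these cells, Msi2 in nearly all of them. Msi1 (ENSMUSG00000054256.11; chromosome 5, 115429599 to 115455698, plus strand) had a count in 59.7% of cells (54.6 to 64.7), with 731 counts in all and at most 12 in a cell. Across library sets its mean was 27.95 CPM at the lowest, 55.4 at the median and 72.5 at the highest, and its share of cells ran from 41.03% to 82.1%. CPM is the usual depth-scaled count. Msi2 (ENSMUSG00000069769.13; chromosome 11, 88339382 to 88718513, minus strand) had a count in 92.6% of cells (89.5 to 95.05) and 1555 counts in all. Its lowest library set had 99.5 CPM, its median set 120.9 and its highest 175.8, so the lowest Msi2 set lay above the highest Msi1 set. The longest stretch shared by the transcripts of both genes was 44 bases, so reads of the most conserved stretch could be placed on either gene.

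The 3 Igf2bp genes differed widely in level. Igf2bp2 (ENSMUSG00000033581.16; chromosome 16, 22059009 to 22163299, minus strand) was the most frequent, with a count in 80% of cells (75.6 to 83.9) and library set means of 57.9, 98.05 and 132.3 CPM (lowest, median, highest). Igf2bp3 (ENSMUSG00000029814.10; chromosome 6, 49085223 to 49214957, minus strand) followed with 60.5% of cells (55.4 to 65.5) and 26.2, 44.04 and 79.2 CPM. Igf2bp1 (ENSMUSG00000013415.9; chromosome 11, 95957163 to 96005940, minus strand) had a count in 44 cells, or 11.6% (8.54 to 15.2), and 57 counts in all. Its library set means were 1.58, 4.21 and 12.3 CPM. No library set range of Igf2bp1 reached that of the other Igf2bp genes, while the ranges of Igf2bp2 and Igf2bp3 overlapped. The transcripts of these genes share at most 28 bases in a row. Exons of Igf2bp3 overlap the opposite-strand gene Malsu1, and those of Igf2bp1 overlap Mir3063 and an antisense gene, Gm29202. The use of strand in counting is not given in the sources used here, so such counts cannot be told apart.

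Elavl1 (ENSMUSG00000040028.9; chromosome 8, 4285382 to 4325413, minus strand) had a count in 92.4% of cells (89.2 to 94.8), 1763 counts in all, and library set means of 119.8, 138.3 and 178.6 CPM. Its exons overlap Ccl25, a chemokine gene on the opposite strand that the small intestine expresses, with the same limit. Lin28b (ENSMUSG00000063804.7; chromosome 10, 45376620 to 45486395, minus strand) had a count in 80 cells, or 21.1% (17.1 to 25.5), with a mean of 0.305 counts per cell, at most 4 in a cell, and library set means of 3.43, 9.56 and 17.0 CPM. Its paralog Lin28a had a count in 2.63% of cells. For scale, Mex3a had a count in 12.4% of cells at a mean of 7.98 CPM, between Igf2bp1 and Lin28b, and Lgr5 had a mean of 208.98 CPM.

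**Figure D1:**
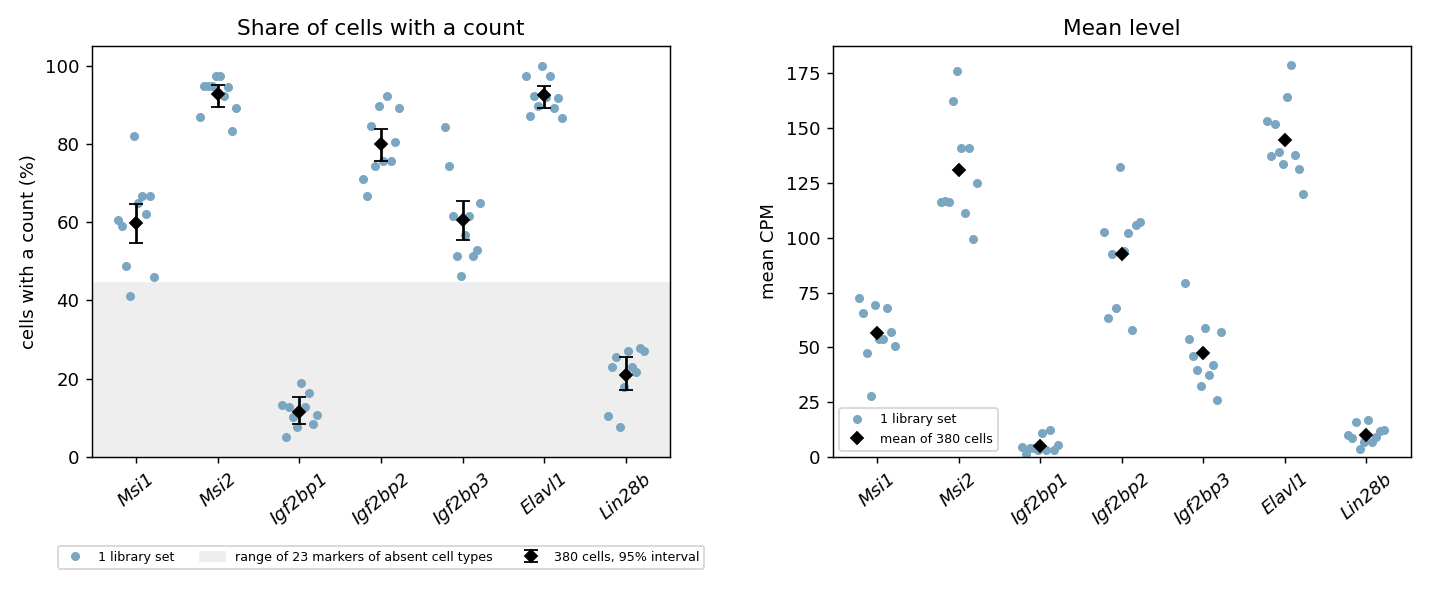
Left, share of cells with a count (%) of each gene; right, mean level in CPM. Blue points are the 10 library sets, black diamonds all 380 kept cells (left, with the 95% Clopper-Pearson interval), and the grey band is the range of the 23 markers of absent cell types. In the left plot Igf2bp1 (11.6%) and Lin28b (21.1%) sit inside the band, and the other 5 genes sit above it over all cells.

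The background shares set how these values can be read. Msi1, Msi2, Igf2bp2, Igf2bp3 and Elavl1 had a count in a larger share of cells than each of the 23 markers of absent cell types. Lin28b lay above 18 of the 23 and Igf2bp1 above 13, so the shares of these 2 genes are within background and are not by themselves evidence that these cells express them. Thinned at random to 19169 counts per cell (38 shallower cells left out), the shares were 83.04% for Msi2, 85.96% for Elavl1, 70.8% for Igf2bp2, 52.3% for Msi1, 44.4% for Igf2bp3, 14.04% for Lin28b and 7.02% for Igf2bp1. By mean level the picture differed for 1 gene: the myeloid lysozyme gene Lyz2, the highest of the 23 markers, had 52.1 CPM, so Igf2bp3, at 47.2 CPM, lay above 22 of the 23 and within their range. That placing rests on Lyz2 alone, since the next marker, Pecam1, had 25.9 CPM. Lyz2 was also uneven between cells: its variance over the mean on thinned counts, 5.06, was above that of 99.96% of genes of like mean. The 7 immune markers, Lyz2 among them, went with Paneth and goblet cell genes. They took 0.0168% of counts in the tertile of cells highest in those genes and 0.00312% in the lowest. Whether Lyz2 counts here come from an absent cell type was not tested, so its use as background is uncertain. Msi1, Msi2, Igf2bp2 and Elavl1 lay above all 23 in CPM too, Lin28b above 18 and Igf2bp1 above 11. The order at the thinned depth had Msi1 above Igf2bp3, where the full-depth shares were alike.

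Per kilobase of merged exon, Elavl1 stood at 13.96 ± 1.67 CPM (mean and SD over 10 library sets), Msi2 at 12.5 ± 2.32, Igf2bp2 at 12.5 ± 3.13 and Msi1 at 9.76 ± 2.28. These 4 did not differ from their neighbours beyond the spread between sets: Elavl1 was above Msi2 in 6 of 10 sets, Msi2 above Igf2bp2 in 4 and Igf2bp2 above Msi1 in 8. Igf2bp3 stood at 5.79 ± 1.89 and was below Msi1 in 9 of 10 sets. Lin28b, at 1.12 ± 0.46, was below Igf2bp3 in all 10. Igf2bp1, at 0.54 ± 0.37, was below Lin28b in 8 of 10 sets, within the spread of both. The order in CPM without the length scaling was the same, but which neighbours stood apart was not: in CPM, Msi2 was above Igf2bp2 in 9 of 10 sets and Msi1 above Igf2bp3 in only 6. Per kilobase of transcript instead of merged exon, Igf2bp2 (23.7) was above Msi2 (20.3). Whether the counts come from whole transcripts or from their 3′ ends is not stated in the labels, and with end counts the scaling by length would not apply.

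The spread between cells was close to that of other genes of like level for most members. On thinned counts, the variance over the mean was 2.08 for Msi1 (median of genes of like mean 2.02), 1.85 for Msi2 (1.78), 2.10 for Igf2bp3 (2.05) and 1.68 for Igf2bp1 (1.42). Elavl1, at 1.60, and Igf2bp2, at 1.71, varied less than most genes of like mean: 27.8% and 15.2% of those genes had a lower ratio. Lin28b, at 1.13 against a median of 1.65, had a lower ratio than all but 6.49% of genes of like mean, and no thinned cell had more than 2 of its counts. Its counts were thus not held by a few cells with many counts each, but they were not even over cells, since classes of cells differed in them, as given below. For comparison, Mex3a had a ratio of 2.21, above 80.8% of genes of like mean. The 14 markers of absent cell types measured the same way had a median of 1.51.

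Cells were then ranked by a cell cycle score, the percent of a cell's counts from S phase and G2/M genes, and the highest tertile was set beside the lowest (mean score 1.45% and 0.885%). Igf2bp3, Igf2bp1 and Lin28b were lower in the cells with the high score. Msi1, Msi2, Igf2bp2 and Elavl1 did not pass the fold in either direction. A gene is counted here as past the fold at an absolute log2 ratio of mean CPM (pseudocount 1) of 0.5 or more. By that rule 3 of 7 members were lower and 0 higher. Of all 20733 genes compared, 54.8% were past the fold, 41% lower and 13.8% higher, with a median of −0.20. The members' share below is near that background. No boundary separates these classes, since 130 cells lay within 5% of a cut.

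Lin28b showed the largest ratio of the 7. Its mean was 18.4 CPM in the low cells, 8.78 in the middle and 3.17 in the high cells, a log2 ratio of −2.21, from 67 and 14 counts in the low and high cells. All 10 library sets had a ratio below 0 (SD 1.16). At the thinned depth 28.04% of low cells (19.8 to 37.5) and 3.36% of high cells (0.923 to 8.38) had a Lin28b count. With S phase genes alone as the score the ratio was −0.99, and with a pseudocount of 10 CPM it was −1.11.

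Igf2bp3 had 79.01 CPM in the low cells, 38.035 in the middle and 24.8 in the high cells, a log2 ratio of −1.63 (SD over sets 0.88). It was below 0 in 9 of 10 sets, and after thinning 61.7% of low cells (51.8 to 70.9) and 34.5% of high cells (25.98 to 43.7) had a count. With S phase genes alone the ratio was −0.97. Igf2bp1 had 9.45 CPM in the low and 2.04 in the high cells, from only 33 and 8 counts. Its log2 ratio of −1.78 was smaller than its SD over sets, 2.47, library sets lay on both sides of 0, and a pseudocount of 10 CPM gave −0.69.

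Msi2 had 149.6 CPM in the low and 109.4 in the high cells (log2 ratio −0.45, SD 0.55). It was lower in 9 of 10 sets but short of the fold, except without library set 5 (−0.59). Elavl1 went from 127.3 to 155.5 CPM (0.29, SD 0.39), Igf2bp2 from 84.4 to 101.7 CPM (0.27, SD 0.49) and Msi1 from 56.2 to 51.6 CPM (−0.12, SD 0.82). These 4 ratios were each smaller than the spread between library sets, which is that of single sets and not of the ratio over all cells. Scaled sums of counts had intervals, for counting error only, of −0.64 to −0.27 for Msi2 and 0.08 to 0.42 for Elavl1. Those of Igf2bp2 were 0.07 to 0.49 and those of Msi1 −0.37 to 0.17.

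Other measures moved with the score. All 15 markers of absent cell types with a count in at least 5% of cells were lower in the high cells, 14 of them past the fold, with a median log2 ratio of −1.48 (lowest −2.07, highest −0.43). The 23 markers together took 0.0283% of counts in the low and 0.0104% in the high cells. The neuronal paralogs Elavl3 (−1.94) and Elavl4 (−1.77) and the let-7 pathway ubiquitin ligase gene Trim71 (−2.42) were lower too. The low cells had fewer counts (median 28304.5 against 33742.5) but more genes with a count (median 9010.5 against 8372). Genes that span at least 200 kb of the genome (1070 genes, the members left out) took 10.9% of counts in the low and 6.33% in the high cells. This last quantity, called here the long-gene share, was chosen after the values were seen.

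Igf2bp3, Lin28b and Igf2bp1 followed the long-gene share closely. It ranged from 4.37% to 20.2% of a cell's counts (median 6.78%), and the highest tertile of cells was compared with the lowest (means 12.4% and 5.48%). Igf2bp3 had 95.6 CPM in the high and 16.9 in the low cells, a log2 ratio of 2.43 (SD 0.66). Lin28b had 21.7 and 2.95 CPM (2.52, SD 1.16, from 78 and 13 counts), and Igf2bp1 had 11.9 and 1.32 CPM (2.47, SD 1.61, from 42 and 6 counts). Each of these was higher in all 10 library sets, and with a pseudocount of 10 CPM Lin28b was at 1.29 and Igf2bp1 at 0.95. Of 19759 genes compared, 65.7% were past the fold, 41.9% higher and 23.9% lower, against 3 of 7 members higher. The ratios of the 3 genes exceeded those of 91.6% to 93.4% of all genes tested.

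The other 4 members did not share that size of difference. Msi2, which itself spans 379.1 kb, was at 156.9 and 110.8 CPM (0.50, just short of the fold, SD 0.31) and was higher in 9 of 10 sets. It was past the fold without library set 1, 2, 5 or 8, with at most 0.58. Elavl1 was at 115.001 and 158.3 CPM (−0.46, SD 0.62), past the fold without library set 6, 8 or 9 (lowest −0.57). Igf2bp2 was at 95.2 and 91.9 CPM (0.05, SD 0.73) and Msi1 at 50.1 and 51.5 CPM (−0.04, SD 0.66). The markers of absent cell types went with the long-gene share as well: 14 of 15 were past the fold and higher, with a median log2 ratio of 1.89, and the 23 together took 0.0329% of counts in the high and 0.00902% in the low cells. Lgr5 was at 230.8 and 180.7 CPM (0.35, SD 0.50).

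**Figure D2:**
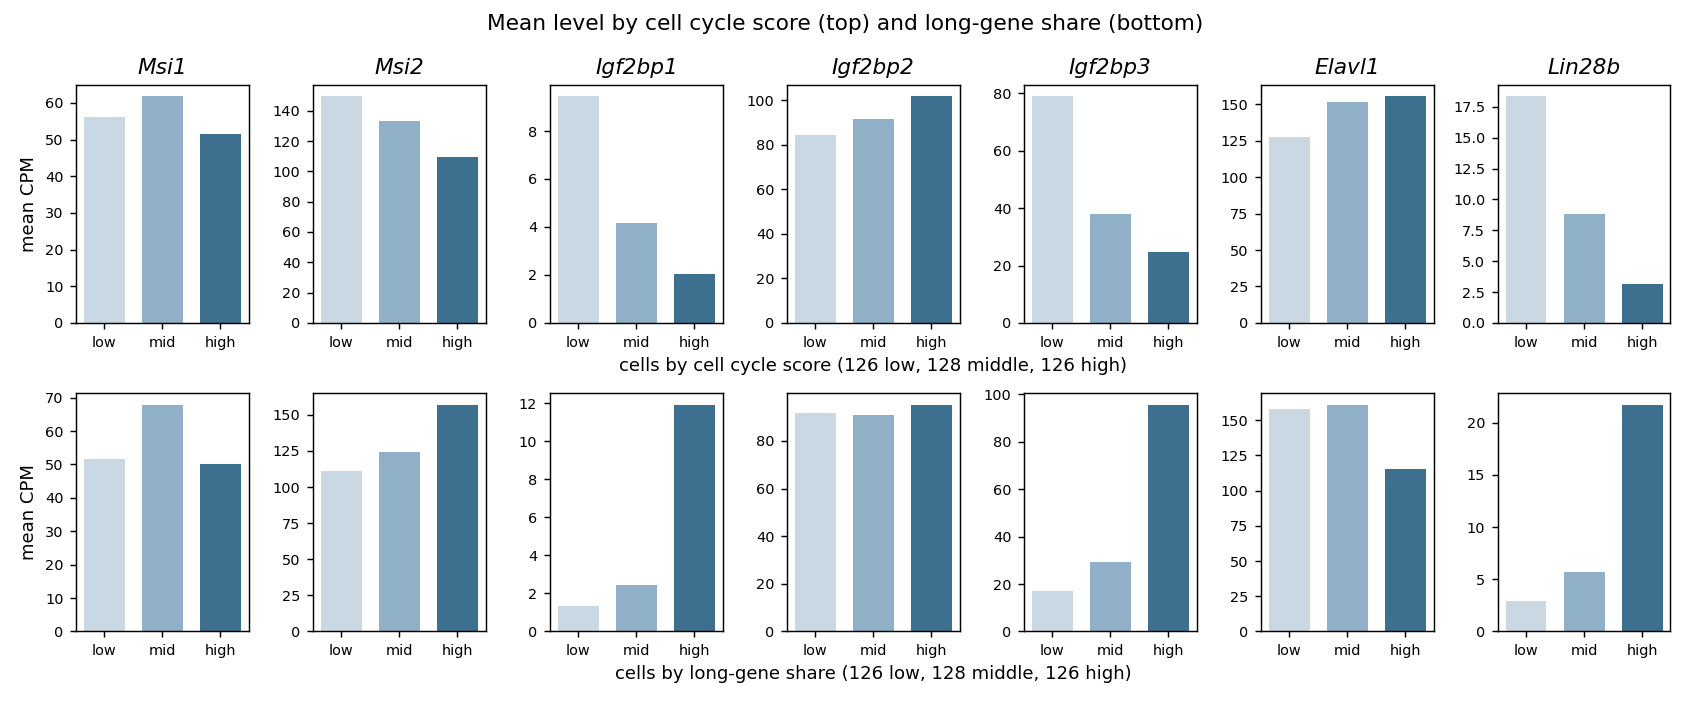
Mean CPM (bars, each axis from 0) of each gene in cells ranked by cell cycle score (top) or long-gene share (bottom) and cut into low, middle and high tertiles. Igf2bp1, Igf2bp3 and Lin28b step down with the cell cycle score and up with the long-gene share (Igf2bp3 from 16.9 to 95.6 CPM), while Igf2bp2 is nearly level in the bottom panels (91.9 to 95.2 CPM).

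Because the cell cycle score and the long-gene share moved together, the cycle comparison was repeated within cells at or below, and within cells above, the median long-gene share. Among the cells at or below it, 95 cells of the high class and 30 of the low class had nearly equal shares (5.79% and 5.97%). There Igf2bp3 was at 21.2 CPM in the high and 18.2 in the low class, a log2 ratio of 0.21 against −1.63 over all cells. Scaled sums of its 69 and 17 counts gave 0.28, with an interval of −0.50 to 1.14 (−1.73 over all cells, a value that includes these cells). Lin28b was at 3.19 and 5.50 CPM (−0.64), and its 11 and 5 counts gave −0.60 with an interval of −2.25 to 1.27. Igf2bp1 had 4 counts and 0 counts, too few for a ratio.

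Among cells above the median, 31 cells of the high and 96 of the low class still differed in long-gene share (7.98% and 12.5%). Igf2bp3 was at 36.02 and 98.02 CPM (−1.42) and Lin28b at 3.14 and 22.4 CPM (−2.50, from 3 and 62 counts). In that part 42.4% of all genes and 14 of 15 markers of absent cell types were past the fold and lower, against 16.7% of all genes and 2 of 15 markers among cells at or below the median. The split was made on cells of 1 sample after the values were seen. Elavl1 was at −0.19 at or below and 0.40 above the median, and Igf2bp2 at 0.16 and 0.45. The part of the long-gene share in these differences was not tested further.

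**Figure D3:**
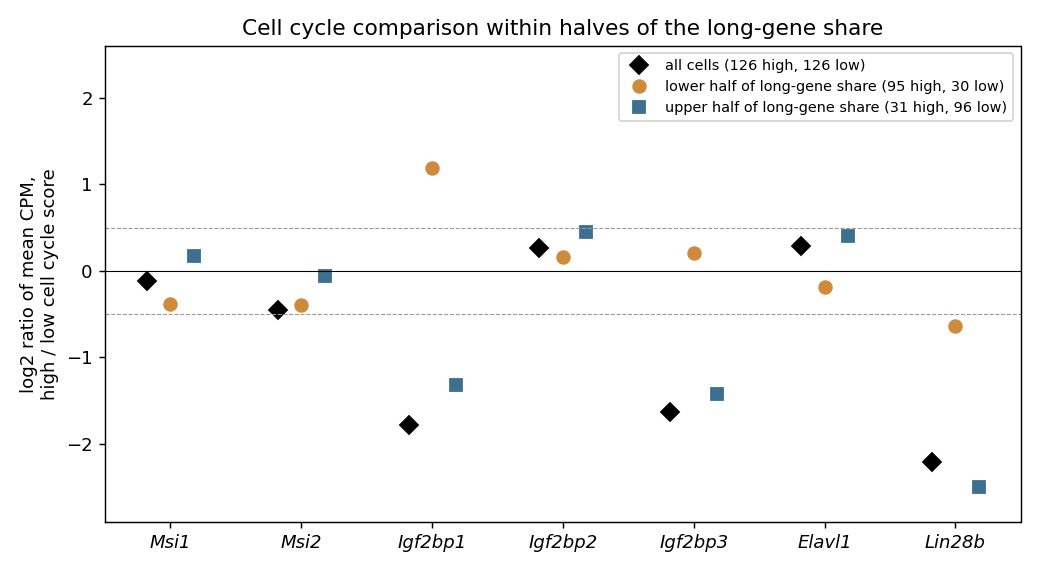
Log2 ratio of mean CPM, high over low cell cycle score, for each gene in all cells (black diamonds), in cells at or below the median long-gene share (orange circles, 95 high and 30 low cells) and in cells above it (blue squares, 31 and 96 cells). Dashed lines mark ±0.5. Igf2bp3 lies at −1.63 in all cells and at 0.21 at or below the median, and the Igf2bp1 circle rests on 4 counts and 0 counts.

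By Lgr5 level, the members differed little. The tertile of cells with the highest Lgr5 (mean 342.05 CPM) was set beside the lowest (90.1 CPM), where 21.1% of all genes were past the fold, 12.4% higher and 8.68% lower. Only Lin28b of the 7 was past it, at 13.9 and 7.77 CPM (log2 ratio 0.77, SD over sets 1.60, 48 and 30 counts, 7 of 10 sets above 0). At or below the median long-gene share its ratio was 0.14, and above the median it was 0.73. The cells with high and low Lgr5 had long-gene shares of 6.00% and 5.63% at or below the median, and of 10.65% and 10.68% above it. The part of the long-gene share in the Lin28b ratio was not tested. Over all kept cells with a pseudocount of 10 the Lin28b ratio was 0.43. The other 6 ratios lay between −0.11 (Elavl1) and 0.29 (Msi2), each smaller than its SD over sets. For Msi2 the interval of the scaled sums, for counting error only, was 0.10 to 0.46.

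By a secretory score, the percent of counts from Paneth and goblet cell genes (means 0.231% and 0.0541%), 24.3% of all genes were past the fold, 11.8% higher and 12.5% lower. Igf2bp1 alone among the members was past it (0.59, from 15 and 13 counts), but without library set 6 its ratio was −0.092, without set 5 it was 0.34, and with a pseudocount of 10 CPM it was 0.21. The remaining members lay between −0.25 (Igf2bp2) and 0.24 (Igf2bp3).

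The gene in the title of the series gave another split. In the 47 cells with a Mex3a count against all other kept cells, 26.1% of all genes were past the fold, 18.2% lower and 7.87% higher. Again Igf2bp1 was the only member past it, with 2 counts in cells with and 55 in cells without Mex3a (log2 ratio of scaled sums −1.98, interval −5.06 to −0.06; log2 ratio of mean CPM −1.73, or −0.52 with a pseudocount of 10). Msi1 was at 50.7 and 57.4 CPM (−0.18), Msi2 at 128.6 and 130.985 (−0.03), Igf2bp2 at 82.2 and 94.01 (−0.19), Igf2bp3 at 44.9 and 47.6 (−0.08), Elavl1 at 131.9 and 146.6 (−0.15) and Lin28b at 8.79 and 10.3 (−0.20). The spread over library sets exceeded each of these 6 ratios. Requiring 2 or more Mex3a counts put Igf2bp3 at −0.81 and Lin28b at −0.96, and leaving out library set 9 put Lin28b at −0.57.

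**Figure D4:**
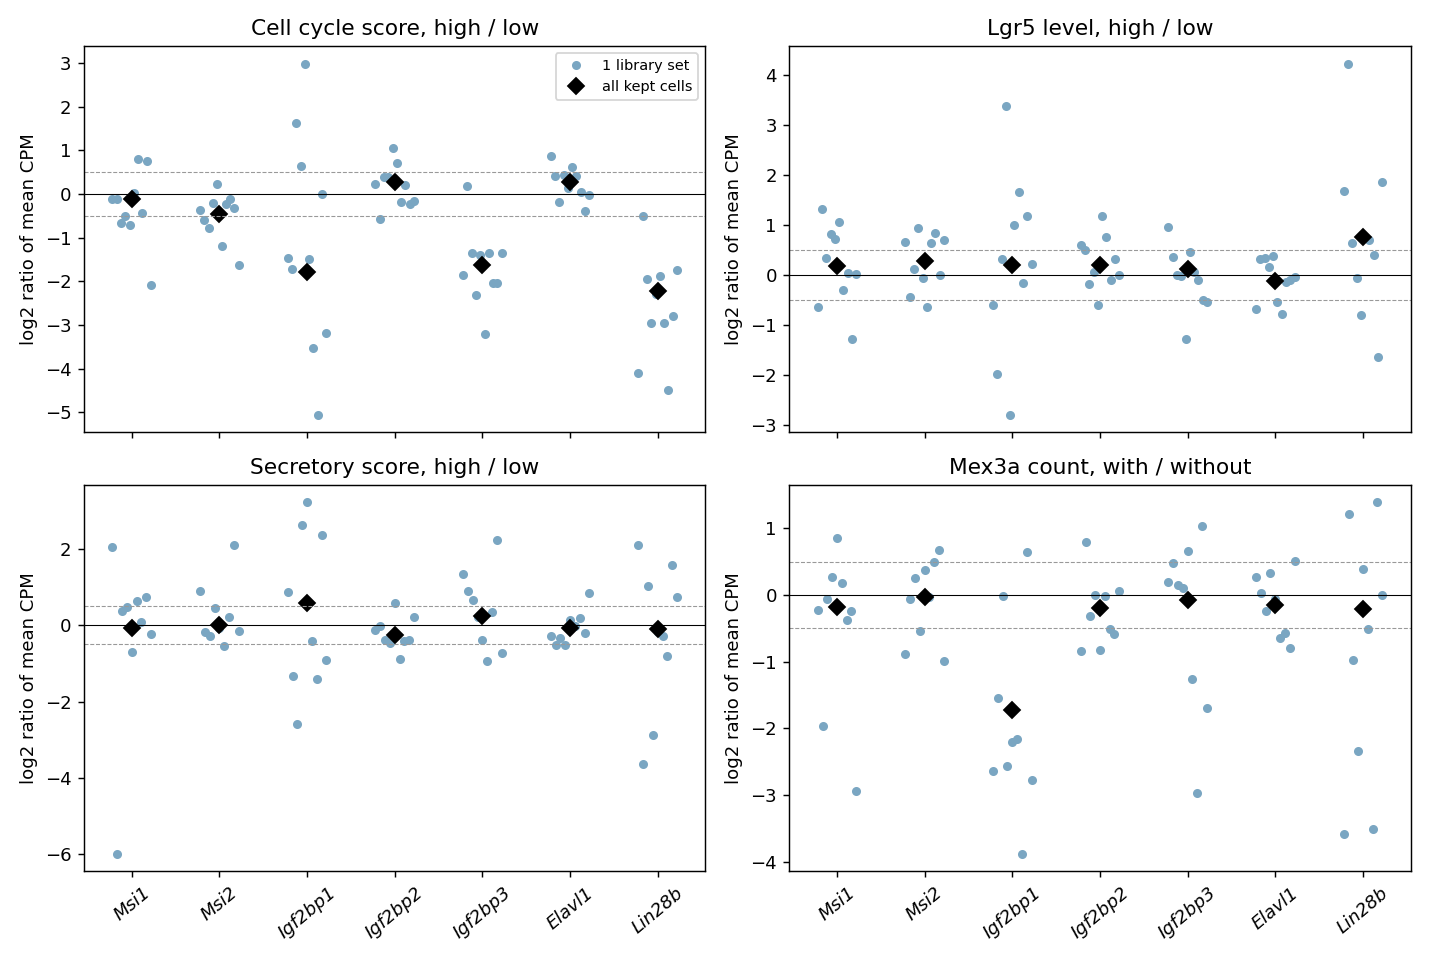
Log2 ratio of mean CPM of each gene in 4 comparisons: cell cycle score, Lgr5 level and secretory score (highest over lowest tertile of cells) and cells with over cells without a Mex3a count. Blue points are library sets where both classes hold 3 or more cells, black diamonds all kept cells, and dashed lines ±0.5. Lin28b is below 0 in all 10 sets for the cell cycle score, and Igf2bp1 scatters over both sides of 0.

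Most cells held a mixture of these transcripts. At the thinned depth a cell had a count of a median of 3.5 of the 7 genes. Of these cells 34.5% had 3 of them and 29.8% had 4, while 2 cells had all 7 and 1 had none. Of 21 pairs, 2 had shares whose intervals did not overlap. Over all genes with a count in 5% to 95% of kept cells, each set beside each member, 4.35% did not overlap, and this background was 11.7% for Igf2bp3, 7.71% for Igf2bp1 and 7.54% for Lin28b, so 2 of 21 is near the background. Igf2bp3 was found in 75% (53.3 to 90.2) of the 24 cells with Igf2bp1 and in 42.1% (36.6 to 47.8) of the others. Lin28b was found in 21.7% (15.4 to 29.1) of the cells with Igf2bp3 and in 7.9% (4.5 to 12.7) of the 190 without. Neither pair held at every depth. The intervals of Lin28b with and without Igf2bp3 overlapped at full depth (25.7% and 14%) and at 25628 counts (24.3% and 11.7%), and at 25628 counts those of Igf2bp1 and Igf2bp3 overlapped (65.5% and 47.3%). Lin28b with and without Igf2bp1 overlapped at the main depth (33.3% and 12.6%) but not at full depth, 40.9% (26.3 to 56.8) and 18.5% (14.4 to 23.02), nor at 25628 counts (44.8% and 14.8%). Split at the median long-gene share, Lin28b was in 10.6% of cells with and 3.62% without Igf2bp3 at or below it, and in 26.7% and 19.2% above it, a difference of the same sign in both with fewer cells. Igf2bp3 was in 81.8% of cells with and 64.4% without Igf2bp1 above the median, and only 2 cells at or below it had Igf2bp1.

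Rank correlations between members were weak. Spearman's rho over the thinned cells (380 less the 38 shallower ones) ran from −0.17 (Igf2bp3 with Elavl1) to 0.21 (Igf2bp3 with Lin28b), and the 2 Musashi genes had 0.13. Cells share depth and library, and in counts this sparse such values are a description.

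The genes most alike each member across cells are given as a description, since each is an extreme of many genes. For Igf2bp3 they were Cadm2 (rho 0.45), a neuronal adhesion gene, Kcnd2 (0.43), a potassium channel gene, and Slc24a3 (0.42), an ion exchanger gene, of which Kcnd2 and Cadm2 are best known from the nervous system. These 3 genes span 965, 514 and 474 kb and count toward the long-gene share. For Lin28b they were Scn3a (0.34), a neuronal sodium channel gene, Stc1 (0.32), a secreted glycoprotein gene, and Gm21847 (0.30). The span of Stc1 is only 12.6 kb, yet its log2 ratio by long-gene share was 3.40. Elavl1 had Oaz1 (0.27), which encodes the antizyme of polyamine synthesis, Lta4h (0.25) and Plpp2 (0.24), all lower where the long-gene share was high (−0.84, −0.52 and −0.66). For Msi1 (Rnd3 0.24, Vps16 0.23, Rap1a 0.20), Msi2 (Tbc1d17 0.22, Sik2 0.21, Gm26871 0.21) and Igf2bp2 (Adgre5, Hipk1 and Rfx1, 0.20 each) the highest rho among 13507 genes was no larger than 0.24. The most negative rho was near that in size or larger: 0.21 for Msi1, 0.26 for Msi2 and 0.20 for Igf2bp2. In size it was 0.27 for Elavl1, 0.36 for Igf2bp3 and 0.29 for Lin28b.

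Genes known as bound or regulated by these proteins were taken from lists drawn up from general knowledge. Of all genes compared by cell cycle score, 13.8% were higher and 41% lower. Of 9 Musashi targets, 1 was past the fold by cell cycle score and lower, Numbl at −1.28, and 0 were higher, with a median of −0.07. Numb, the Notch inhibitor, had a count in 91.1% of cells and a ratio of −0.18, and Lrig1, a brake on growth factor receptors, had a count in 91.1% and 0.36. Of 9 Igf2bp targets tested, 2 were higher and 1 lower, with a median of 0.01. Myc stood at 93.6 CPM in the high and 41.8 in the low cells (1.14), Hmga1, a chromatin protein gene, at 130 and 65.9 CPM (0.97), and Btrc, a ubiquitin ligase adaptor gene, at 31.8 and 65.98 CPM (−1.03). Igf2, the transcript the family is named for, had a count in 0.789% of cells, and the table held no match for H19. Hmga2, with its 4 let-7 seed matches, had a count in 82.4% of cells and a mean of 94.2 CPM. Of 12 Elavl1 targets, 6 were higher and 0 lower, with a median of 0.34; the highest was the cyclin gene Ccna2, at 240 and 99.3 CPM (1.26). Ccna2 is itself a gene of dividing cells, as is the cyclin gene Ccnb1, also among the 12. Such genes can go with a score built from cell cycle genes, and Myc (1.14) is also among the 12. Why the 6 targets were higher was not tested.

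Related RNA-binding genes were mostly frequent. Of 44 (the Mex3, other Elavl, Hnrnp, Pum, Celf, Cpeb and similar families), 43 had a count in at least 5% and 30 in at least 50% of cells. By cell cycle score 6 were higher and 7 lower, with a median of 0.30, from −1.94 (Elavl3) to 1.10 (Mex3d, 10.4 and 4.29 CPM). Hnrnpa1, a splicing factor gene, stood at 128.2 and 71.5 CPM (0.83). Hnrnpa2b1 and Hnrnpk were in every cell, at means of 451 and 382.96 CPM. Of 13 genes for microRNA processing and let-7 decay, 1 was higher and 3 were lower (median 0.00). Dis3l2, the exonuclease that degrades uridylated let-7 precursors, was at 77.3 and 116.8 CPM (−0.59), and Tarbp2, a Dicer partner gene, at 21.8 and 14.2 CPM (0.59). Of 15 genes of the N6-methyladenosine machinery, whose marks Igf2bp proteins read, 3 were higher and 1 lower (median 0.30): the writer genes Rbm15 (0.80) and Mettl14 (0.62) were above the fold and the reader and helicase gene Ythdc2 (−0.78) below it. These counts stand against 13.8% of all genes higher and 41% lower.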

How the data were processed

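The authors deposited 1 table of whole-number counts per gene and cell, not normalized, and the genome build is GRCm38.p4 per the submitters' processing notes. Aligner, counting tool, annotation release, strand and molecular identifiers are not stated in the sources used here. Spike-in RNA is mentioned in the labels, and the table had 0 spike-in genes. Symbols came from GENCODE M21 for 33219 identifiers, and 277 had none. The members and all gene lists were chosen with earlier results of these data known. Cells with under 10000 counts (20) were left out; doublets were not removed. CPM, log2 ratios (pseudocount 1 CPM), thinned shares (seeded, without replacement) and Clopper-Pearson intervals were computed in Python 3.11.15 with numpy 2.4.6, pandas 2.3.3 and scipy 1.17.1. Ratios were compared over the 20827 genes found in 5% or more of kept cells, less those that built a score. Named genes were the members, the 3 genes most alike each frequent member, and the extremes of each list by level and by cycle ratio; H19, Igf2, Hmga2, Numb and Lin28a were named after their values were seen. On simulated counts (20827 genes) the ratio called 90.5% of 200 genes changed by log2 1, and 9.15% of unchanged genes. These were Poisson counts with 1 rate per gene, in tertiles of cells taken at random. The members' variance over the mean was 1.13 to 2.10 on thinned counts, where Poisson counts give 1. The 9.15% can thus be too low for these data, and it was not split by level. Alternatives were other pseudocounts, scores, depths and filters, each library set left out, and splits by long-gene share added after the data were seen.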

Additional observations from a re-analysis of the deposited data

How the results depend on the processing

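No paired analysis was possible because all cells belong to 1 group. Thinned to 19169 counts per cell, the shares of cells were 52.3% (Msi1), 83.04% (Msi2), 7.02% (Igf2bp1), 70.8% (Igf2bp2), 44.4% (Igf2bp3), 85.96% (Elavl1) and 14.04% (Lin28b), and Igf2bp3 at 25628 counts per cell stood at 49.1%. The mean of Elavl1 was 172.3 CPM when scaled over genes with a mean count under 10. For the cell cycle score, Lin28b was at −0.99 with S phase genes alone. In cells at or below the median long-gene share, Igf2bp1 was at 1.19 (4 counts and 0 counts, on the pseudocount scale), Igf2bp3 at 0.21, Elavl1 at −0.19 and Lin28b at −0.64. Lin28b by long-gene share was at 1.29 with a pseudocount of 10. Igf2bp1 by secretory score ran from −0.092 (without library set 6) to 0.84 with 1 library set left out. The number of genes past the fold by cell cycle score was 11368, and 7146 with a pseudocount of 10 or 17272 with no filter on low genes. By Lgr5 level it was 4400, and 2688 with cells split at the median, 811 with a pseudocount of 10, 8581 with no filter and 6735 at or below the median long-gene share. By secretory score it was 5065, and 3114, 1094 and 9382 under the first 3 of these. By Mex3a it was 5437, and 8469 with 2 counts or more, 1236 with a pseudocount of 10 and 10521 with no filter. By long-gene share it was 12986, and 19795 with no filter. The cause was not tested. The other alternatives, leave-one-out included, left member levels and ratios within 1 SD over sets and counts of genes within 1.5 times, though small ratios crossed the fold as given above. At other depths 13 differences in co-detection moved, and each described pair lost its separation at another depth. Igf2bp1 and Lin28b, with means of 0.15 and 0.305 counts per cell, are limited by depth.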

Other observations

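The 20 cells left out for low totals held the same genes at lower shares, as values with no comparison: Msi2 had a count in 13 of the 20, Elavl1 in 12, Igf2bp2 in 10, Igf2bp3 in 4, Msi1 in 2, and Igf2bp1 and Lin28b in 1 each. Ranked by Pearson's r instead of Spearman's rho, other genes headed each list. Igf2bp3 was then most alike Skint5 (0.41), Sfi1 (0.37) and Gm13822 (0.37), and Lin28b was most alike Pdgfd (0.32), Nxph1 (0.31) and Dnah7c (0.31). Library sets differed in their mean long-gene share, from 6.93% to 9.40% of counts.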
